A study of Mus musculus with 2 samples.

Results

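The genes described here are those of glutathione conjugation and of the NRF2 antioxidant response, as expressed in sorted medullary thymic epithelial cells (mTEC). Members were taken by symbol from the deposited array table: every gene with a glutathione S-transferase (GST) symbol of the alpha, kappa, mu, omega, pi, theta or zeta class, plus 22 enzymes, transporters and regulators named one by one. The rule gave 41 genes out of 19937 with a probe set of their own, covered by 44 probe sets. The set was proposed after the genotype difference of these same arrays had been seen, so the differences below describe the members and are not tested. Both groups were B6 mice aged 6 weeks and homozygous for a floxed Hdac3 allele (HDAC3fl/fl). The group labelled WT carried no Cre in its labels, and the group labelled HDAC3cKO carried Foxn1-Cre, which is driven by the promoter of a transcription factor gene of thymic epithelium as a whole and not of the medulla alone. Cells were sorted as EpCAM positive, CD45 negative and low for both Ly51 and MHC class II (mTEClo), and cells of many mice were typically pooled for the HDAC3cKO sample. RNA was amplified and read on 1 Affymetrix whole-transcript array per genotype. Each genotype being a single array, there is no replicate error, no test was possible, and "higher" and "lower" refer to these 2 arrays only.

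Glutathione is a small thiol made in the cytosol in a pair of steps, from cysteine that enters largely as cystine. GST enzymes join it to reactive electrophiles, and glutathione peroxidases use it to reduce peroxides. The transcription factor NRF2 (Nfe2l2) is held down by KEAP1, which senses electrophiles and directs NRF2 to degradation. When released, NRF2 pairs with small MAF proteins at antioxidant response elements of genes for glutathione synthesis, conjugation and quinone reduction. Medullary epithelium is a mixed population that also includes tuft-type and cornified cells.

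The targeted gene, Hdac3, was at a log2 intensity of 10.90 on the WT-labelled array and 11.64 on the cKO-labelled array, a difference of 0.74. Its level thus ran against the genotype label. Whether the probe set covers exons that the floxed allele leaves in place was not tested. Arrays are therefore named by label, and every direction rests on those labels. Of the sort markers, Epcam was at 11.33 and 11.06 and Enpep, which encodes Ly51, at 7.0 and 7.38. Ptprc, which encodes the excluded antigen CD45, was at 9.63 and 8.79, and the class II gene H2-Aa was at 13.30 and 13.31 in spite of the low gate. The 13 genes listed for thymic epithelium and this gate differed by between -1.36 and 0.85. Of these, 1 passed 2-fold downward (Krt14, at 12.24 and 10.88) and none upward, against 5.88% and 2.97% of all genes. Median intensity over all probe sets was 183 and 177. The table has no detection calls, so a low value is not absence.

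Differences ran in both directions, within most roles as well as between them. GST genes of the mu class and single GST genes of the alpha and theta classes were higher on the cKO-labelled array, together with Nqo1 and Ephx1. The cystine transporter gene Slc7a11, the extracellular peroxidase gene Gpx3, Mgst3, Gstp3 and Cbr3 were lower. The core enzymes of glutathione synthesis and of thioredoxin and peroxiredoxin chemistry differed by less than 2-fold. In counts, 8 of 41 members were higher by 2-fold or more (19.5%, against a background of 2.97% of all genes) and 5 were lower by 2-fold or more (12.2%, against 5.88%). The remaining 28 lay between. Because the members were proposed from this contrast, nothing is read from those shares. The median member difference was 0.22 on the log2 scale, the median over all genes was 0.01, and 25 members were above 0 (51% of all genes were) and 16 below. Of the members, 35 had a mean level at or above the median level of all genes (8.03), and the other 6 were Gstm6, Gsto2, Gstp3, Gstt4, Mgst2 and Cbr3. That level is the mean of both arrays, so the difference itself bears on who passes: Gsta3, Gstm3, Gstm5 and Nqo1 were under it on the WT-labelled array, and Gstp3 and Cbr3 were over it there. All measured members are therefore counted.

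**Figure D1:**
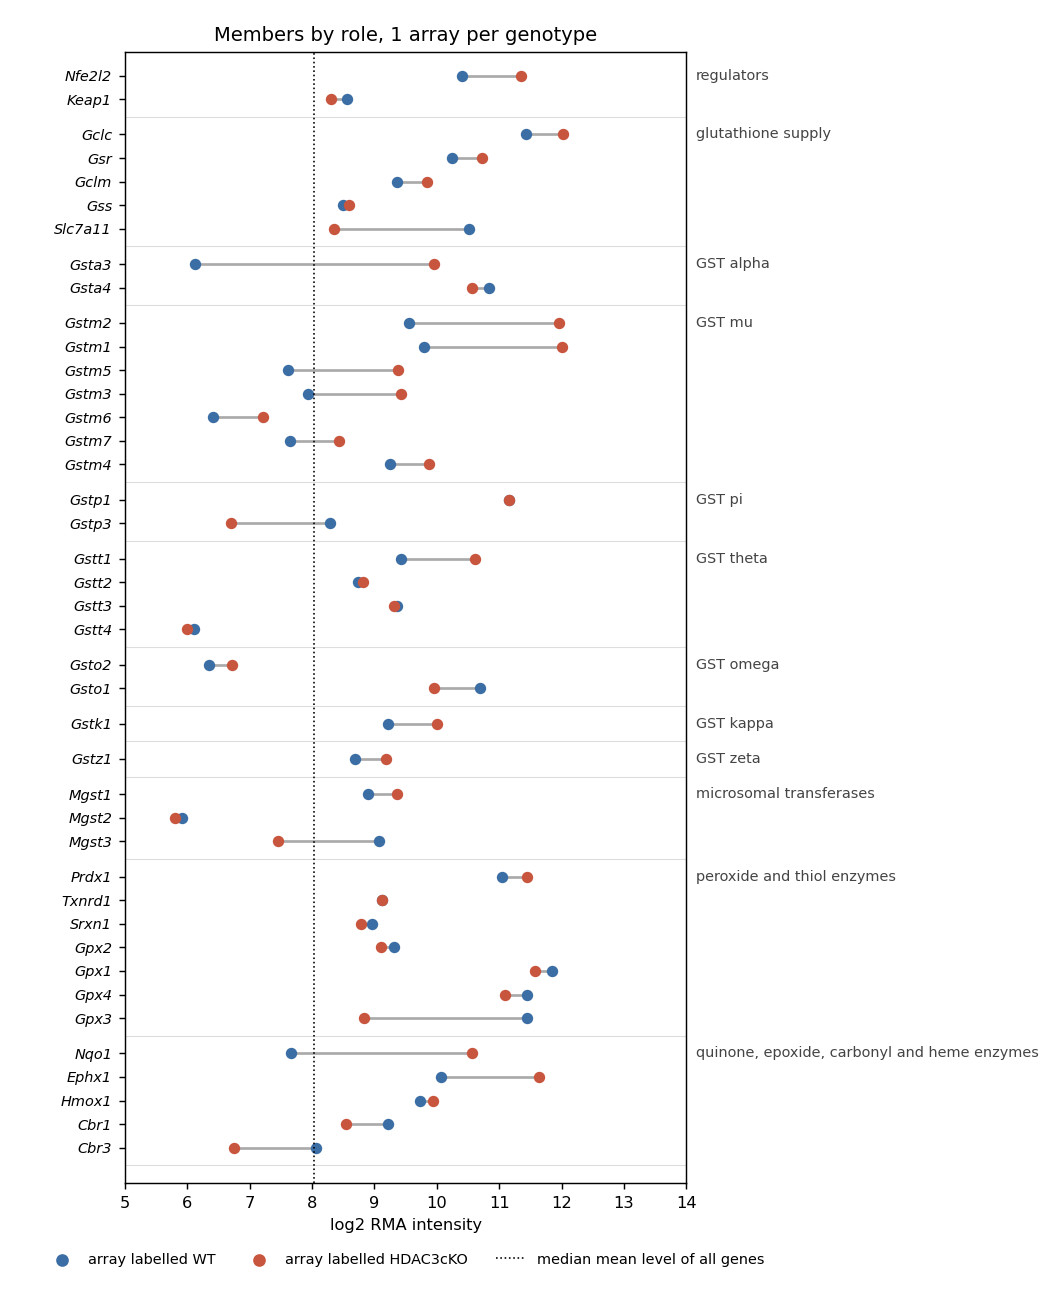
Log2 RMA intensity (x axis) of each of the 41 members on the array labelled WT (blue) and the array labelled HDAC3cKO (red), 1 array each, grouped by role and sorted by difference within a role; the dotted line is the median mean level of all genes, 8.03. All 7 mu class genes have the red point to the right, whereas Slc7a11 and Gpx3 have it far to the left.

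Among the regulators, the NRF2 gene Nfe2l2 was higher and the gene of its repressor was little different. The intensity of Nfe2l2 was 1351 on the WT-labelled array and 2607 on the cKO-labelled array. This is a log2 difference of 0.95, or 1.93-fold, just under the 2-fold line. Keap1 had intensities of 376 and 317, a log2 difference of -0.25. A transcript level of Nfe2l2 does not give the amount of NRF2 protein, which is controlled largely by degradation. The 16 other genes listed for this regulation all differed by less than 2-fold, with a median of -0.04. Nfe2l1, the gene of the related factor NRF1, differed by -0.29. Bach1, which encodes a repressor at the same elements, differed by 0.13, and the small MAF genes Maff, Mafg and Mafk by 0.25, -0.10 and 0.06. Sqstm1, which encodes the KEAP1-binding protein p62 and is itself an NRF2 target, differed by 0.49. The widest negative difference of this list was that of the peptidase gene Dpp3, at -0.76.

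Among the 5 genes of glutathione supply, Slc7a11 alone passed 2-fold, and it was lower. Slc7a11 encodes the cystine transporter xCT, which brings in the cysteine for glutathione. Its intensity was 1463 on the WT-labelled array and 329 on the cKO-labelled array, a log2 difference of -2.15 or 4.45-fold. Its position from the lowest difference was 302 of 19937. Gclc, the catalytic subunit of the rate-limiting ligase, had log2 levels of 11.43 and 12.02. Its modifier subunit gene Gclm had 9.37 and 9.84, and Gss, the gene of the synthetase of the second step, had 8.50 and 8.59. Both ligase subunits were thus higher by 0.59 and 0.47, and the synthetase differed by 0.09. Gsr, the reductase that returns oxidised glutathione to its thiol form, was at 10.24 and 10.72, a difference of 0.48. None of these 4 reached 2-fold. The partner chain of xCT, Slc3a2, which is not a member, differed by 0.53, in the direction opposite to Slc7a11.

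The 20 measured genes of glutathione turnover and sulfur amino acids had a median difference of -0.05. Among them 1 gene passed 2-fold upward (background 2.97% of all genes) and 1 downward (5.88%). Cth, the gene of cystathionine gamma-lyase, which makes cysteine from cystathionine, was at 7.12 on the WT-labelled and 9.22 on the cKO-labelled array, 4.27-fold higher. Cbs, which catalyses the preceding step, differed by 0.45. Ggt5, a gamma-glutamyl transferase that cleaves extracellular glutathione conjugates, was at 9.95 and 8.59, 2.56-fold lower. Slc7a11 and Cth, which belong to alternative routes to cysteine, therefore lay on opposite sides on these arrays.

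The largest difference of all members was in the alpha class of GST, enzymes that conjugate lipid peroxidation products and other electrophiles. Gsta3 had an intensity of 69.4 on the WT-labelled array and 993 on the cKO-labelled array. The log2 difference was 3.84, or 14.3-fold, and its position from the highest difference was 3 of 19937. Its low starting level lies far below the median of all genes, and with 32 added to each value before the logarithm the difference was 3.34. Gsta4, which is specialised for 4-hydroxynonenal, a product of lipid peroxidation, was at log2 levels of 10.84 and 10.56. The pair of alpha genes thus differed in direction, with Gsta4 at -0.28. The annotated promoter window of Gsta3 (RefSeq, GRCm38.p6, chr1:21240335-21240634, plus strand), from 250 bases before to 50 after the gene start, is printed because it belongs to the member with the largest difference. Capitals mark matches to the antioxidant response element cores TGACNNNGC or TGAGNNNGC on either strand.
Gsta3: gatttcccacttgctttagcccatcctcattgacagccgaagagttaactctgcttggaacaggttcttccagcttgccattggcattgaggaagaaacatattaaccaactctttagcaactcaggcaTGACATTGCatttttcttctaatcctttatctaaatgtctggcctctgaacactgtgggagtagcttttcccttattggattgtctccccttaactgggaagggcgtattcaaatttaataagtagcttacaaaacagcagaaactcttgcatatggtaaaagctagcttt

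Of the GST classes with several measured genes, the mu class was the one with all of them above 0. These enzymes detoxify epoxides and quinones, among other substrates. Gstm2 had an intensity of 749 on the WT-labelled array and 3971 on the cKO-labelled array, 5.30-fold higher. Gstm1 had 888 and 4087, 4.60-fold higher. Gstm5 had 197 and 665, 3.38-fold higher. All of these pairs lie more than 1.5 log2 units apart, with positions from the highest difference of 34, 52 and 107. Gstm3 had 245 and 687, 2.81-fold higher, by the rule's probe set. The other 3 members of the class were below 2-fold: Gstm7 differed by 0.79, Gstm6 by 0.79 and Gstm4 by 0.63. The median of the 7 was 1.49, which is the Gstm3 value itself. Members of this class are close in sequence, so their probe sets can share signal, and the 7 values are not independent.

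The Gstm3 call rests on the choice of probe set. The rule took probe set 10362511, which has the higher mean, with log2 levels of 7.93 and 9.42 and a difference of 1.49. The gene's other probe set, 10501218, had 7.33 and 7.58, a difference of 0.25, and the mean of both gave 0.87, which is under 2-fold. The median of the mu class falls with it, to 0.79 with the other probe set and 0.87 with the mean. Of the 20 singly named probe sets numbered nearest to 10362511, 20 belong to genes on chromosome 10, while for 10501218 19 of 20 belong to genes on chromosome 3, where the gene table places Gstm3. Which transcript each probe set reads was not tested. For Prdx1 the rule's probe set also sits among those of another chromosome (20 of 20 on chromosome 16, the gene being on 4), but both of its probe sets gave like differences, 0.39 and 0.31. The Gpx4 probe sets gave -0.36 and -0.18.

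The 7 mu genes follow one another on chromosome 3 with no other protein-coding gene between them in the RefSeq gene table. In chromosomal order the log2 differences were 1.76 for Gstm5, 0.79 for Gstm7, 0.79 for Gstm6, 1.49 for Gstm3 (0.25 by its other probe set), 2.41 for Gstm2, 2.20 for Gstm1 and 0.63 for Gstm4. All 7 were thus above 0, and the differences did not run in one direction along the cluster. In all, 17 members lie in 5 such groups of neighbours, and of the other groups the Cbr pair alone lay on one side of 0. In the theta group on chromosome 10, Gstt1 was higher by 1.18, while Gstt3, Gstt4 and Gstt2 differed by -0.05, -0.12 and 0.08. Gsto1 and Gsto2 on chromosome 19 differed by -0.75 and 0.38. Gstp1 and Gstp3, also on chromosome 19 and with 1 other coding gene between them, differed by 0.00 and -1.59. Cbr1 and Cbr3 on chromosome 16 were both lower, by -0.67 and -1.32.

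**Figure D2:**
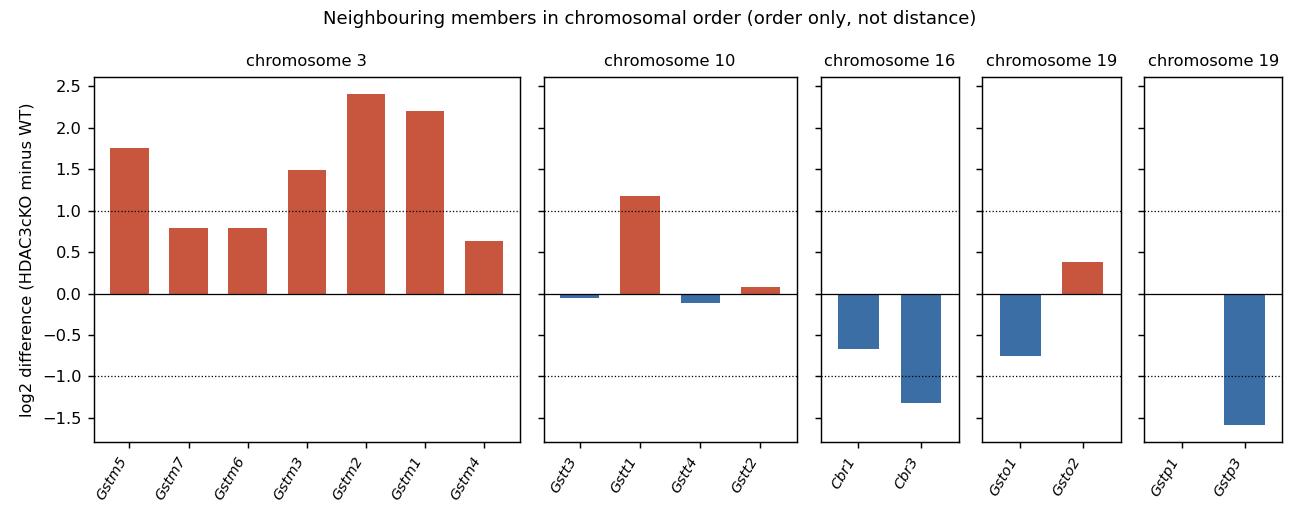
Log2 difference, HDAC3cKO minus WT (y axis), of members that neighbour each other, in chromosomal order (x axis, order only), with 1 array per genotype; dotted lines mark 2-fold. The 7 bars of the mu group on chromosome 3 are all above 0, while only Gstt1 stands out in the theta group and Gstp1 is at 0.00 beside Gstp3 at -1.59. The Gstm3 bar, at 1.49, is that of the rule's probe set, and the gene's other probe set gave 0.25.

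The promoter windows of Gstm2 and Gstm5 are shown because Gstm2 has the largest difference of the mu genes and Gstm5 is the one of them past 2-fold whose window holds antioxidant response element cores. Both are from RefSeq on GRCm38.p6, 250 bases before to 50 after the gene start, written 5′ to 3′ on the strand of the gene (Gstm2 at chr3:107986371-107986670, minus strand; Gstm5 at chr3:107895604-107895903, plus strand). Capitals mark core matches as for Gsta3, and the Gstm2 window has none.
Gstm2: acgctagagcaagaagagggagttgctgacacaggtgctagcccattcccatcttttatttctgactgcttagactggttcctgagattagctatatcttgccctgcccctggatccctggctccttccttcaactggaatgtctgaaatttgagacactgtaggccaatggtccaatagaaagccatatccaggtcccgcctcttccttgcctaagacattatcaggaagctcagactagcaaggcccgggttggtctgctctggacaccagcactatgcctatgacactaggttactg
Gstm5: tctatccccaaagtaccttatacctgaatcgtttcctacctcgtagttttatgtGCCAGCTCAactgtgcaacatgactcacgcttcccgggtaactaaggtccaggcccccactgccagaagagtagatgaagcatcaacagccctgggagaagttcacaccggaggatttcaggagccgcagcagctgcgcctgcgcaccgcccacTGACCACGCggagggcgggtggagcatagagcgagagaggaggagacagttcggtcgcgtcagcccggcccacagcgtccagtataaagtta

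Among the theta class, which includes enzymes acting on small halogenated compounds, Gstt1 was the member past 2-fold. It had intensities of 690 and 1563, 2.27-fold higher on the cKO-labelled array. Gstt2 and Gstt3 kept log2 levels of 8.74 and 8.82 and of 9.36 and 9.31, and Gstt4 was low on both, at 6.11 and 5.99. The theta genes were thus near level apart from Gstt1. In the pi class, Gstp1, an abundant GST of many epithelia, had 2293 and 2295, a difference of 0.00. Gstp3, its less studied neighbour, had 313 and 104, 3.0-fold lower. Gsto1, a thioltransferase-type GST, had 1668 and 991, 1.68-fold lower, and Gsto2 was low on both arrays at 6.35 and 6.72. The mitochondrial and peroxisomal Gstk1 was at 9.22 and 10.01, a difference of 0.79. Gstz1, which also works in tyrosine breakdown, differed by 0.49. Over all 19 GST genes of these classes, 6 were past 2-fold upward and 1 downward, where the background shares are 2.97% and 5.88% of all genes. Of those 6, 4 belong to the mu class, whose values are not independent. The median difference of the GST genes was 0.63 (0.49 with the other probe set of Gstm3), against -0.05 for the other 22 members. Without the mu class the median of the remaining members was 0.00.

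The microsomal transferases are membrane proteins unrelated in sequence to the cytosolic GST. Mgst1, the member best known for conjugation and peroxidase activity, was at 8.89 and 9.36, a difference of 0.47. Mgst2 was low on both arrays, at 5.92 and 5.80. Mgst3 had intensities of 538 on the WT-labelled array and 175 on the cKO-labelled array, 3.08-fold lower. The family therefore had 1 member of 3 past 2-fold, and it was lower. Of the genes of the same membrane family that act in leukotriene and prostaglandin synthesis, the leukotriene genes were lower still. Alox5ap was at 12.16 and 8.54, 12.3-fold lower, and Ltc4s, the leukotriene C4 synthase gene that uses glutathione, was at 9.86 and 7.30, 5.87-fold lower. Ptges, a prostaglandin E synthase gene of the family, was at 9.29 and 9.02, a difference of -0.27. Hpgds, outside this family, is the sigma class cytosolic GST that makes prostaglandin D2, and was at 10.13 and 7.35, 6.90-fold lower. These genes are not members by the rule, and the tuft-type marker list used here also holds Alox5ap, Ltc4s and Hpgds. All 10 measured genes of that marker list were lower by more than 2-fold (background 5.88% of all genes). Their median was -3.58 and their summed intensity was 29820 on the WT-labelled and 2295 on the cKO-labelled array. The part of tuft-type cells in the lower value of Mgst3 was not tested.

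Peroxide and thiol enzymes were near level except for Gpx3. Gpx3 encodes the secreted glutathione peroxidase of plasma. It had intensities of 2791 on the WT-labelled array and 454 on the cKO-labelled array, a log2 difference of -2.62 or 6.15-fold, and its position from the lowest was 171 of 19937. The intracellular peroxidase genes stayed close: Gpx1 was at 11.84 and 11.57. Gpx2, the epithelial form and an NRF2 target, was at 9.32 and 9.11. Gpx4, which reduces lipid hydroperoxides in membranes, was at 11.45 and 11.09. These differences lay between -0.36 and -0.22, so each was slightly lower and none reached 2-fold. The NRF2-responsive genes of the thioredoxin system, in which thioredoxin reductase keeps thioredoxin reduced, were also near level. Txnrd1 was at 9.12 on both arrays, a difference of 0.01. Srxn1, which repairs overoxidised peroxiredoxins, differed by -0.18, and the peroxiredoxin gene Prdx1 by 0.39.

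Of 18 other peroxidase, thioredoxin and superoxide dismutase genes, 2 passed 2-fold upward (background 2.97% of all genes) and none downward (5.88%). Their median was 0.16. Gpx8, an endoplasmic reticulum peroxidase, was at 9.20 and 10.93, 3.32-fold higher. Txnip, which encodes an inhibitor of thioredoxin, was at 12.08 and 13.42, 2.54-fold higher. Catalase (Cat) differed by 0.52 and thioredoxin itself (Txn1) by -0.08.

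Among enzymes of quinones, epoxides, carbonyls and heme, 2 passed 2-fold upward and 1 downward. Nqo1 encodes the quinone reductase that is widely used as an NRF2 readout. Its intensity was 202 on the WT-labelled array and 1516 on the cKO-labelled array, a log2 difference of 2.91 or 7.51-fold, with a position from the highest of 12 in 19937. Ephx1, microsomal epoxide hydrolase, had 1070 and 3181, a log2 difference of 1.57 or 2.97-fold. Hmox1, heme oxygenase 1, a target of NRF2 and of BACH1, was at 9.73 and 9.94, a difference of 0.22. The 3 genes thus differed widely in size though each was above 0. The carbonyl reductase gene Cbr3, also an NRF2 target, had 269 and 107, 2.50-fold lower, and Cbr1 had 593 and 373, 1.59-fold lower. The Nqo1 window (RefSeq, GRCm38.p6, chr8:107403156-107403455, minus strand), shown for the second-largest difference, holds no antioxidant response element core of the forms searched, so it has no capitals. It covers only 250 bases before the start, and nothing about NRF2 binding follows from the lack of a match.
Nqo1: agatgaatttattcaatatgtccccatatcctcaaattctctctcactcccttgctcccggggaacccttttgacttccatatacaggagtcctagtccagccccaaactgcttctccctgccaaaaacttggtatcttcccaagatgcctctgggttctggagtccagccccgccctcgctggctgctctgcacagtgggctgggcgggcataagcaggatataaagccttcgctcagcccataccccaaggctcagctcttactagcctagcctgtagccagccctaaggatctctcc

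**Figure D3:**
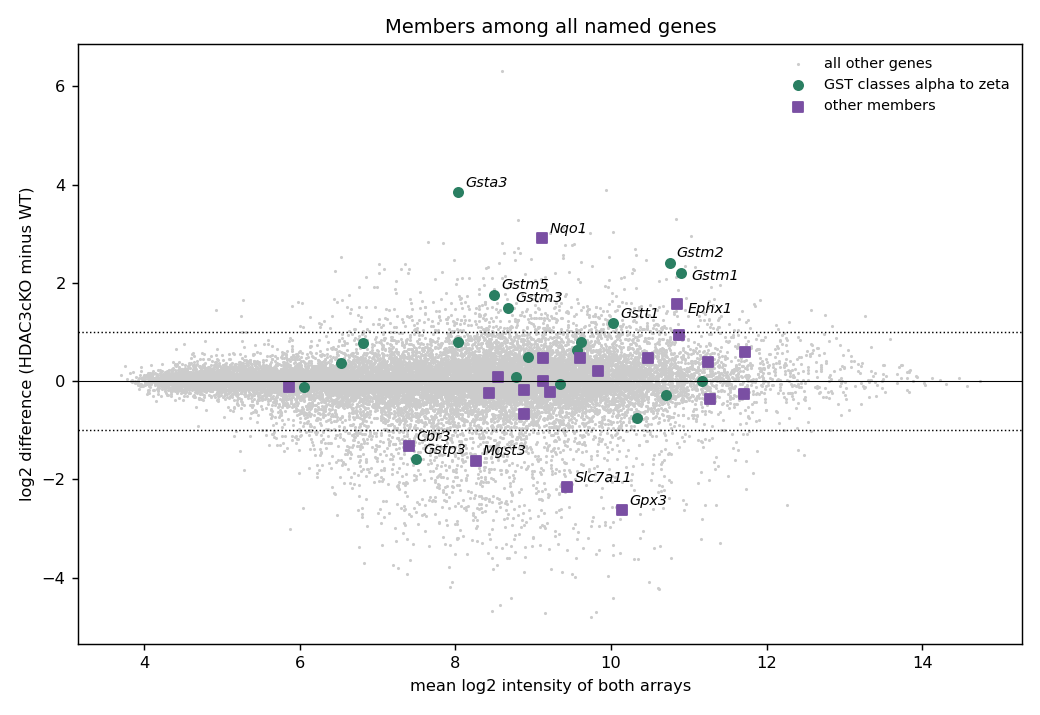
Log2 difference, HDAC3cKO minus WT (y axis), against the mean log2 intensity of both arrays (x axis) for all 19937 genes (grey), with GST genes as green circles and other members as purple squares; dotted lines mark 2-fold and members past it are named. Gsta3 at 3.84 and Nqo1 at 2.91 lie at the upper edge of all genes, and Gpx3 at -2.62 is the lowest member.

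Other genes usually listed as NRF2 targets lay mostly below 0. Of 24 measured, 16 were below 0, as were 9620 of all 19937 genes, and their median was -0.26. None passed 2-fold upward and 5 passed it downward, against background shares of 2.97% and 5.88% of all genes. Me1, the malic enzyme that supplies NADPH, was at 10.74 and 8.85, 3.72-fold lower. The exporters of glutathione conjugates Abcc1 and Abcc3 were 2.12-fold and 2.50-fold lower. Aldh3a1, an aldehyde dehydrogenase, and Akr1c19, an aldo-keto reductase gene, were 2.93-fold and 3.04-fold lower. At the upper end Abcg2, an efflux transporter gene, was at 7.25 and 8.24, a difference of 0.99. In the list of other transferase relatives and detoxification enzymes the median was 0.01. Of its 21 genes, 5 passed 2-fold downward (background 5.88% of all genes) and none upward (2.97%). Besides Alox5ap, Hpgds and Ltc4s these were Clic3, of a family with a GST-like fold, at 3.51-fold, and the sulfotransferase gene Sult1d1, at 2.12-fold. All 9 genes of xenobiotic receptors and the aryl hydrocarbon receptor battery, which shares Nqo1 as a target, differed by less than 2-fold, with Ahr at -0.35 and the indicator gene Cyp1a1 low on both arrays, at 5.79 and 5.61. Over the 108 pathway genes outside the rule, 3 passed 2-fold upward and 11 downward, where the background shares are 2.97% and 5.88%, and the median difference was -0.04.

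**Figure D4:**
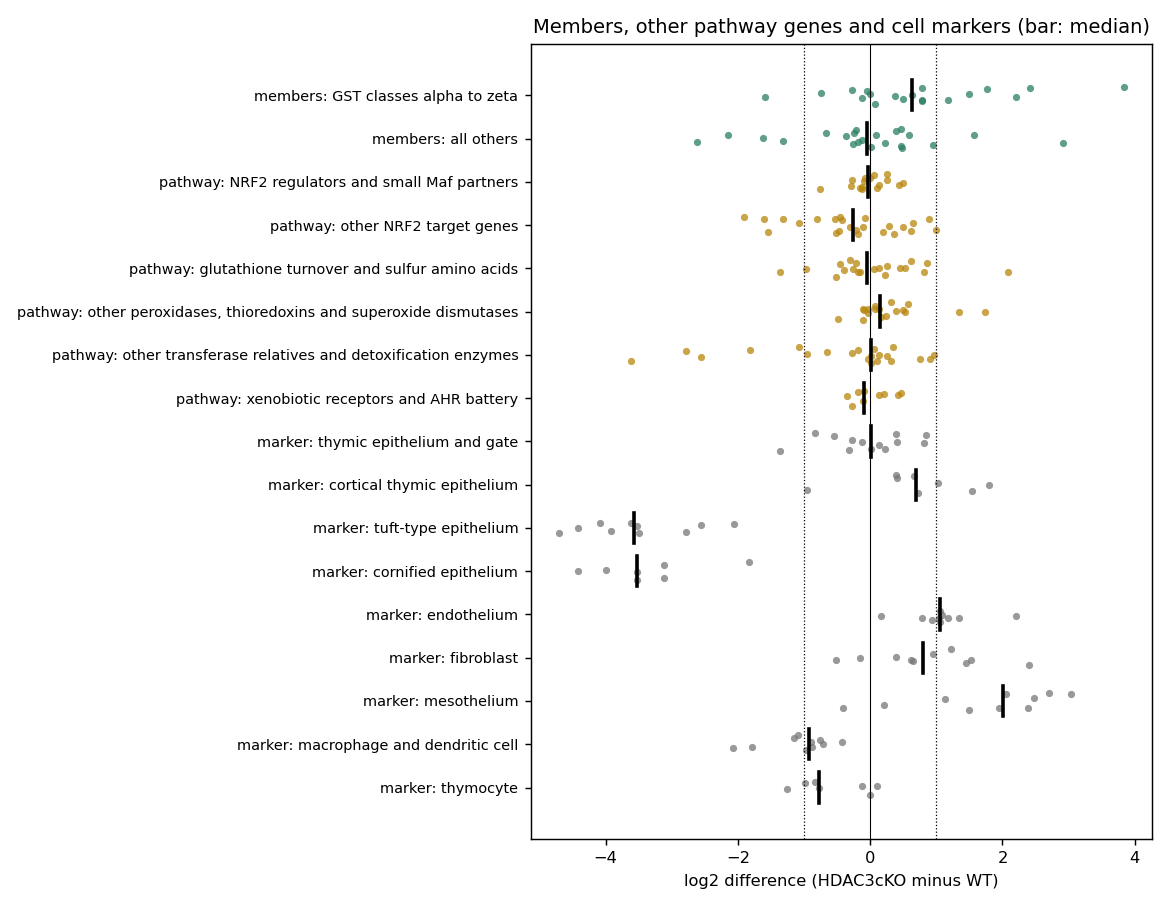
Log2 difference, HDAC3cKO minus WT (x axis), of each measured gene (points) in the members (green), the lists of other pathway genes (yellow) and the cell marker lists (grey), with the list median as a black bar and 2-fold as dotted lines; vertical scatter within a row has no meaning. The median of the GST genes, which include the 7 mu genes that are all above 0, is 0.63. That of other NRF2 targets is -0.26, and the tuft-type and cornified markers lie to the far left.

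Markers of other cells differed in both directions on the same arrays as the members. For the counts below, the background is 2.97% of all genes past 2-fold upward and 5.88% downward. In bulk RNA, fewer cells of a type and less RNA per cell cannot be told apart. Beside the higher members, 8 of 10 mesothelial markers passed 2-fold upward, with a range of -0.41 to 3.04, a median of 2.01 and a summed intensity of 6895 on the WT-labelled and 13482 on the cKO-labelled array. Much of that sum comes from the markers that did not pass, Krt19 at 3008 and 3471 and Msln at 2243 and 1684. Among endothelial markers 7 of 10 passed it, with sums of 8337 and 17947. Fibroblast markers had 4 of 10 past it and 2 below 0, with a range of -0.52 to 2.4 and sums of 7742 and 18331. Much of the rise in that sum comes from Dcn, at intensities of 3667 and 10000. Among markers of cortical epithelium 3 of 8 passed 2-fold upward and 1 was below 0. Their range was -0.95 to 1.79, with sums of 9005 and 14227. Upk3b, with the widest difference of the mesothelial list, was at 8.50 and 11.54, whereas Msln differed by -0.41. Dcn, of the fibroblast list, was at 11.84 and 13.29, whereas Pdgfra and Lum differed by -0.52 and -0.15. Cdh5, of the endothelial list, was at 11.06 and 12.11. Beside the lower members, all 7 measured cornified markers passed 2-fold downward, with sums of 15673 and 1474. Macrophage and dendritic cell markers were all below 0, with 4 of 10 past 2-fold downward and sums of 16613 and 6804. Among thymocyte markers 1 of 7 passed 2-fold downward and 6 were below 0, as were 9620 of all 19937 genes. Their range was -1.26 to 0.11, with sums of 3665 and 2607. The gate, positive for EpCAM and negative for CD45, is meant to leave out blood, endothelial and fibroblast cells. The part of any of these cells in the member values was not tested.

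Promoter sequences were compared for what the members share outside the array. Windows of 36 members were matched by symbol, and Gclc, Gsr, Gsta4, Gstt2 and Hmox1 were not matched. The core TGACNNNGC, searched on both strands, was in at least 1 window of 9 of 36 members (25%), against 14% of all 27025 genes with windows. Counted by window it was in 18.0% of member windows and 12.4% of all windows. The variant TGAGNNNGC was in 25% of members and 19.8% of all genes, TGANTCA, the AP-1 core, in 13.9% and 8.97%, and GCGTG, the aryl hydrocarbon receptor core, in 36.1% and 35.2%. Of the 8 higher members past 2-fold, 2 had TGACNNNGC, and of the 5 lower ones none had it, while 2 of each had TGAGNNNGC. Median GC content was 55.5% in member windows and 52.7% in all windows. The set names genes of the NRF2 response, so nothing is read from these shares. The matches are of letters and are not binding sites.

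The 9 members with TGACNNNGC are printed with 10 bases on each side, 5′ to 3′ on the strand that reads TGAC, with the core in capitals, to show that the core occurs in members of unlike difference. By RefSeq on GRCm38.p6 they lie at chr3:122245413-122245441 (minus strand) for Gclm, chr1:21240454-21240482 (plus strand) for Gsta3, chr3:107895802-107895830 (plus strand) for Gstm5, chr3:107931725-107931753 (minus strand) for Gstm7, chr6:138140461-138140489 (minus strand) for Mgst1, chr2:75704885-75704913 (minus strand) for Nfe2l2, chr4:116685456-116685484 (minus strand) for Prdx1, chr2:152105542-152105570 (minus strand) for Srxn1 and chr10:82859104-82859132 (minus strand) for Txnrd1. The Prdx1 core overlaps a match to TGANTCA.
Gclm: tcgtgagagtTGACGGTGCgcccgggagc
Gsta3: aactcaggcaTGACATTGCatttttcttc
Gstm5: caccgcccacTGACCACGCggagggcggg
Gstm7: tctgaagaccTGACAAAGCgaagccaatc
Mgst1: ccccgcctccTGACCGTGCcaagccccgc
Nfe2l2: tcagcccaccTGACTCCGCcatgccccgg
Prdx1: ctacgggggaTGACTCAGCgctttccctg
Srxn1: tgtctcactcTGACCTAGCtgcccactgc
Txnrd1: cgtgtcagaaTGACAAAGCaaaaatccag

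Of these 9, Gsta3 and Gstm5 differed by 3.84 and 1.76. Nfe2l2, Gstm7, Gclm, Mgst1 and Prdx1 differed by between 0.39 and 0.95, and Txnrd1 and Srxn1 by 0.01 and -0.18. Nqo1, Gstm1, Gstm2, Gstm3, Ephx1, Gpx3, Mgst3 and Cbr3, all past 2-fold, had neither form of the core in the windows searched.

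Member differences moved little with the scaling of the arrays. Under median centring, quantile normalization and an intensity-dependent loess curve, Gsta3 stayed between 3.80 and 3.89, Nqo1 between 2.86 and 2.96, Slc7a11 between -2.21 and -2.10, and Gpx3 between -2.69 and -2.57. Nfe2l2 lay between 0.86 and 1.00, still short of 2-fold before rounding. Gstp1 and Txnrd1, near 0, changed sign with the scaling, from -0.09 to 0.05 and from -0.04 to 0.06.

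**Figure D5:**
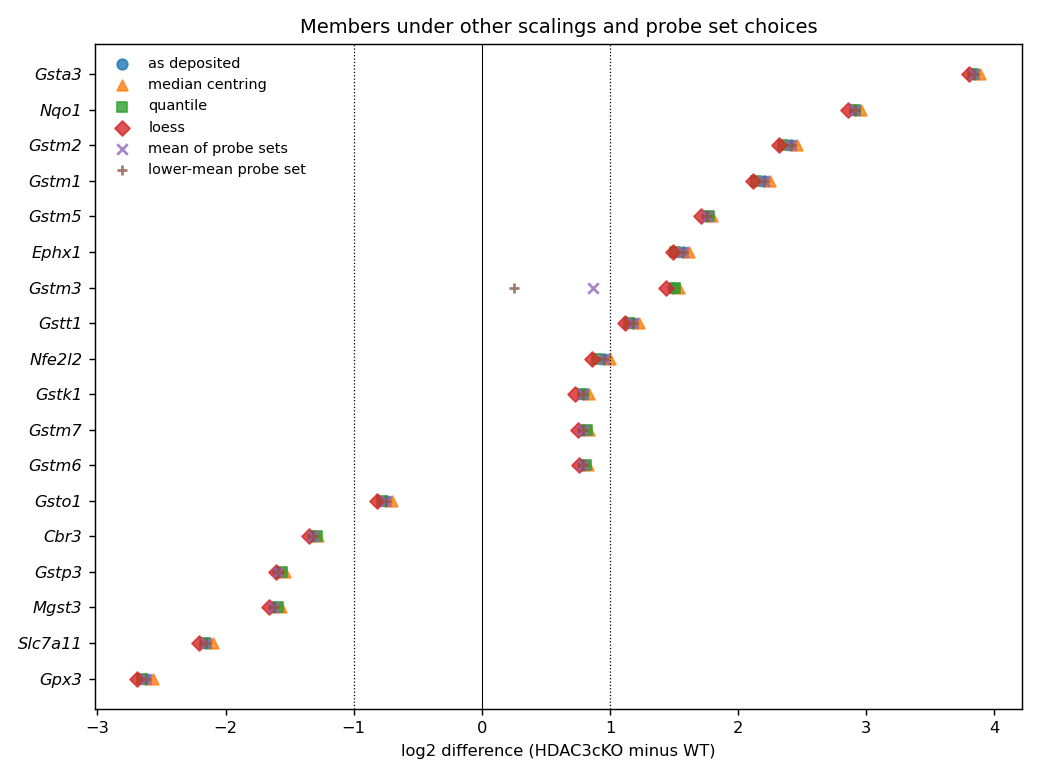
Log2 difference, HDAC3cKO minus WT (x axis), of the members with the largest differences in either direction (y axis) under each scaling and choice of probe set (symbols); dotted lines mark 2-fold. Symbols overlap for every gene shown except Gstm3, which is at 1.49 with the rule's probe set, 0.87 with the mean of both and 0.25 with the other one.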

How the data were processed

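The deposited values are linear intensities of 34760 probe sets on each of 2 arrays, made with RMA per the submitters' processing notes, a background correction, normalization and probe summary. No version or setting is given in the sources used here. Intensities were taken to log2 with no pseudocount, and differences are HDAC3cKO minus WT. Names came from the platform annotation and RefSeq (GRCm38.p6), 21640 of them with 1 symbol; 5 probe sets with several symbols that include a member were left out. For a gene with several probe sets the one with the highest mean was used. A gene was counted when it differed at least 2-fold; with 1 array per group no p-value, standard error or SD is given, and the number of arrays limits the precision. Members, gene lists and motifs were chosen with earlier results of these data known. Every member may be named. Of each pathway list those past 2-fold and a few fixed genes are named. Sqstm1, Dpp3, Cbs, Slc3a2, Abcg2, Cyp1a1, Maff, Mafg, Mafk, Ptges, Krt14, Krt19, Msln, Upk3b, Pdgfra and Lum were added after their values were seen. Motifs were searched on both strands of 32851 RefSeq promoter windows. Protein identity was not analysed here. The alternatives were median centring, quantile normalization, loess (span 0.3), the mean of probe sets, an added 32, other thresholds and a level filter; using the other probe set and leaving out the mu class were added later. Scalings and counts were tested on simulated data. The tools were pandas 2.3.3 and numpy 2.4.6 in Python 3.11.15, with loess from statsmodels 0.14.6 and plots from matplotlib 3.10.9.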

Additional observations from a re-analysis of the deposited data

How the results depend on the processing

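The 8 higher and 5 lower members were the same 13 genes under median centring, quantile normalization, loess and an added 32. With a 1.5-fold threshold 14 members were higher (background 8.33% of all genes) and 7 lower (11.2%), and with a 3-fold threshold 5 were higher (0.757%) and 4 lower (2.88%). Among the 35 members at or above the median level, 8 were at least 2-fold higher (22.9%, against 4.54% of all genes at that level). In the same set 3 were at least 2-fold lower (8.57%, against 6.75%). The median difference of the 35 was 0.39, against 0.03 for all genes at that level. That filter is decided in part by the difference: Gsta3, Gstm3, Gstm5 and Nqo1 pass through the cKO-labelled array alone, and Gstp3 and Cbr3 drop out through their low value there, so these figures support nothing. Without the mu class transferases 4 members were at least 2-fold higher and the median was 0.00. All genes of that class lie above the median of the members, so leaving them out could not raise it. Nothing is read from that change. With the mean of the probe sets, or with the other probe set, 7 members were at least 2-fold higher, since Gstm3 differed by 0.87 or 0.25; the mu class median was then 0.87 or 0.79, and with the other probe set the GST gene median was 0.49. After median centring, 5 of the pathway genes outside the rule were at least 2-fold higher in place of 3; genes just under 2-fold passed with that shift. No paired analysis was possible because each group has 1 array, and leaving out a replicate was not possible for the same reason. No detection calls were used, so folds against low levels such as that of Gsta3 on the WT-labelled array are uncertain in size.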
